A study of Mus musculus with 8 samples.

Results

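10 regulators of fuel and mitochondrial gene expression were followed in mouse left ventricle: the fatty acid receptors Ppara and Ppard, their partner receptor Rxra, the estrogen-related receptors Esrra, Esrrb and Esrrg, the coactivators Ppargc1a (PGC-1α) and Ppargc1b (PGC-1β), the muscle protein Perm1, and the mitochondrial transcription factor Tfam. They were chosen by name, but, like the gene lists used below, with earlier results of these data known. All 10 were among the 13439 genes of the deposited table, Perm1 under its older symbol 2310042D19Rik, and all 10 passed the filter on low values. The study sequenced RNA from 8 left ventricle libraries, 2 in each of 4 groups, and its title asks how loss of Lin28a bears on hypertrophy under pressure overload. The Lin28a protein binds RNA and holds back the processing of let-7 microRNAs.

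The floxed groups carried the genotype Lin28afl/fl, in which the gene is flanked by recombination sites but intact, and came from control littermates. The knockout groups, labelled Lin28aCko and called cKO here, lacked the gene in the heart. The sources used here name no Cre driver, strain, sex or age. Within each genotype, 1 group had a sham operation and 1 had transverse aortic constriction (TAC), a band on the aorta that raises the pressure against which the left ventricle pumps. TAC hearts were taken at day 5, and no separate day is stated for sham hearts. The labels speak of duplicates without saying that each library came from its own animal, so the spread behind each p-value may be largely technical. Only for cKO sham do the sex-linked genes show more: Xist, made in female cells, and the Y-linked Ddx3y differed between its libraries, as given below. Those libraries thus did not come from the same animal. The atrial light chain Myl7 also differed within floxed sham and within cKO TAC, so their libraries did not hold the same tissue mix. Its level does not tell whether the animals differed.

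PPARα and PPARδ bind DNA together with RXR. When fatty acids or their derivatives are present, they switch on genes of fatty acid uptake, storage and oxidation. The estrogen-related receptors need no estrogen. They bind genes of the citric acid cycle, the respiratory chain and energy transfer, and depend on PGC-1 coactivators, which also bind the PPARs. Perm1 is a striated muscle protein that acts downstream of and together with PGC-1 and the estrogen-related receptors, and Tfam packages and transcribes mitochondrial DNA. The adult heart, which burns mostly fatty acids, is known for high activity of this network.

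Library totals ranged from 10315902 to 21871570 reads, and the members were covered by 201 to 7764 reads in a library. Levels are in CPM, reads divided by the library total and put on a common scale. A gene with no read could still hold up to 3 reads, or 0.137 to 0.291 CPM depending on the library (counting error only). Lin28a itself was not analysed here, so the knockout was not checked on its own transcript. In the library cKO sham 2 Xist stood at 44.3 CPM and Ddx3y at 0, whereas in the other 7 libraries Xist was at most 0.173 CPM and Ddx3y at least 32.3 CPM. The atrial light chain Myl7 was also uneven: floxed sham 2, cKO sham 2 and cKO TAC 2 had 132.6, 64.97 and 66.2 CPM, and the remaining 5 libraries 0.511 to 6.16 CPM. Counts without these 3 libraries are given where they differ, for the regulators in every comparison and for the gene lists in floxed TAC against sham and the interaction.

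Promoter sequence was available from RefSeq (GRCm38.p6, 250 bases before to 50 after each transcript start) for 9 of the 10 genes in 14 windows. Both strands were searched for 5 motifs. The set was settled, and its NRF1 motif shortened, after a first search of these same windows. Shares in member windows are therefore no independent test. The estrogen-related receptor element TNAAGGTCA and the cyclic AMP element TGACGTCA were in no member window, and were in 1.28% and 1.79% of all 32851 windows. The nuclear receptor core AGGTCA, which the first of these contains, was in windows of Rxra and Perm1 and in 16.3% of all windows. The motif GCATGCGC, the core of the site that NRF1 binds, was in the windows of Ppara and Esrra and in 2.71% of all. The ETS motif CCGGAAG, which GABP binds, was in the Tfam window and in 8.86% of all. A match is a description of letters and not a measured binding site. Only exact matches were counted, here and for the gene lists further on, so sites that differ in a letter were missed. Stretches are shown for Perm1 and Ppara, which had the largest falls after TAC described further on, and for Tfam, which acts inside mitochondria. Capitals mark the motif, and each reads 5′ to 3′ on the strand of the gene.
Perm1, chr4:156215677-156215867, plus strand: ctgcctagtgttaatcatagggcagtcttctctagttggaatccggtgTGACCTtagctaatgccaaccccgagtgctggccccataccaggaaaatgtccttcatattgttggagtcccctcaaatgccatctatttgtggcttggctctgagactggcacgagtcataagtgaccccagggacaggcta
Ppara, chr15:85735714-85735775, plus strand: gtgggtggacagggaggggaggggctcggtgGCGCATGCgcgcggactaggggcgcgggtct
Tfam, chr10:71238075-71238101, minus strand: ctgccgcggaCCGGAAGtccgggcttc
The receptor core of Perm1 lies 202 bases before the RefSeq start, on the opposite strand and so printed as its reverse complement TGACCT. The NRF1 motif of Ppara lies 31 bases before its start, outside the GENCODE exons. It is printed as its reverse complement GCGCATGC and overlaps a copy on the other strand. The ETS motif of Tfam lies 47 bases before its RefSeq start, inside a GENCODE exon.

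Among floxed sham hearts the regulators differed widely in level. Per kb of merged exon, Perm1 was the most abundant at 116 ± 5.32 CPM per kb (SD, n = 2), followed by Esrra at 75.6 ± 1.62, Ppara at 36.3 ± 3.44 and Rxra at 28.2 ± 1.06 CPM per kb. Ppard (15.7 ± 1.17 CPM per kb) and Ppargc1a (14.2 ± 1.28 CPM per kb) came next, and their 2 libraries overlapped. Esrrg, Esrrb and Tfam followed at 11.03, 9.84 and 9.20 CPM per kb, and Ppargc1b was lowest at 6.44 ± 0.63 CPM per kb. Neighbours in this order other than Ppard and Ppargc1a did not overlap. Exon lengths come from GENCODE M21, which may differ from the annotation used for counting.

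**Figure D1:**
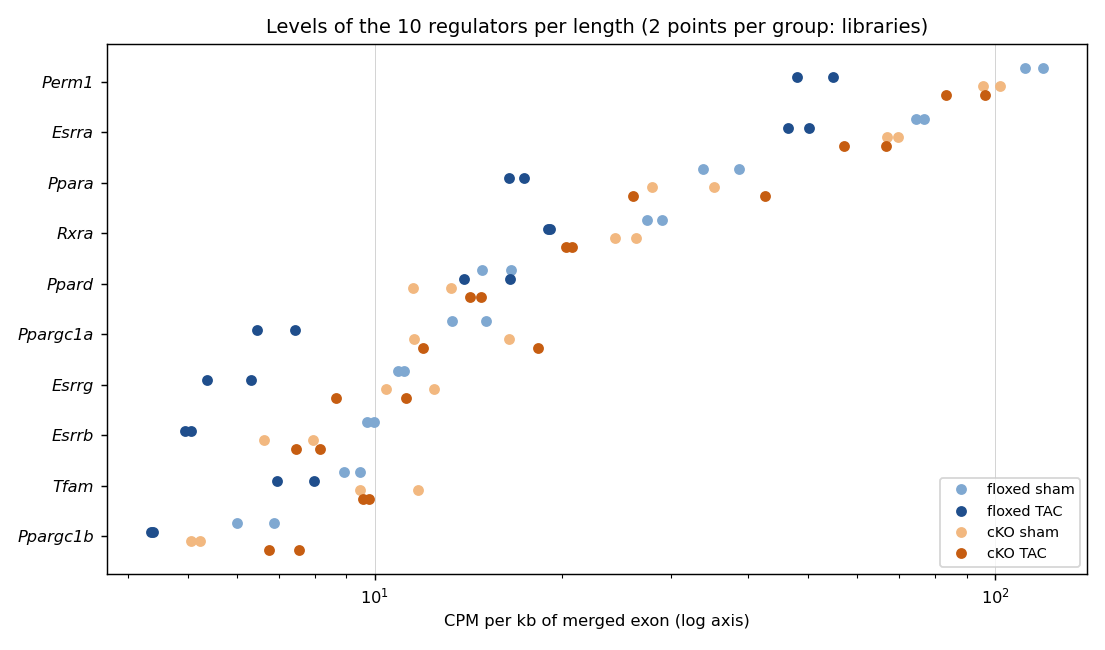
CPM per kb of merged exon (log axis) of the 10 genes, ordered by their floxed sham level; each point is 1 library and colours mark the 4 groups. Perm1 and Esrra lead in every group, and the floxed TAC points of 9 genes lie to the left of the other 6 libraries, with Ppard the exception.

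TAC lowered most of the network in floxed hearts. Of the 10 genes 8 fell, to between 0.444 and 0.694 of their sham level on the log2(CPM + 1) scale, and Ppard and Tfam did not pass the test. Of all 13120 genes tested, 42.4% passed in this comparison, 14.5% in the lower direction. The median log2 difference was −0.77 over the 10 regulators and 0.14 over all genes tested, and scaling by relative log expression moved the latter to 0.00.

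Of the fatty acid receptors, Ppara stood at 119.8 and 137.0 CPM in floxed sham and at 61.6 and 58.1 CPM in floxed TAC libraries. Both TAC libraries were thus below both sham libraries, and the TAC mean was 46.6% of the sham mean. The log2 difference was −1.09 ± 0.21 (SE, limma adjusted p = 0.00242). Ppard, the form found in most tissues, read 54.2 and 48.8 CPM in sham and 45.7 and 54.2 CPM in TAC, so the groups overlapped. Its difference was −0.05 ± 0.13 (adjusted p = 0.805), with a 95% interval from −0.35 to 0.25. Rxra, the partner of both, went from 140.3 and 148.0 CPM to 97.1 and 97.8 CPM, a fall by 0.56 ± 0.10 on the log2 scale (adjusted p = 0.0017).

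All 3 estrogen-related receptors fell. Esrrb went from 54.6 and 56.1 CPM to 27.8 and 28.4 CPM, a log2 difference of −0.96 ± 0.13 (adjusted p = 0.000362). Esrrg went from 62.0 and 63.4 CPM to 35.8 and 30.4 CPM, a log2 difference of −0.90 ± 0.16 (adjusted p = 0.00141). Esrra, the most abundant of the 3 per length, went from 166.9 and 172.1 CPM to 112.3 and 104.0 CPM, a log2 difference of −0.64 ± 0.11 (adjusted p = 0.00139). Esrra shares 73 exon bases with Trmt112 on the opposite strand. The library kit keeps strand, but whether the counting used it is not stated.

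Of the coactivators, Ppargc1a went from 86.1 and 97.8 CPM in sham to 48.1 and 41.8 CPM in TAC libraries, a log2 difference of −1.02 ± 0.22 (adjusted p = 0.0042). Ppargc1b, the less abundant form, went from 22.4 and 25.7 CPM to 16.3 and 16.4 CPM, a log2 difference of −0.53 ± 0.14 (adjusted p = 0.0155). This was the only call of the 8 that any of the 20 alternatives lost. Without floxed sham 2 the adjusted p was 0.124, and the call was also lost without either floxed TAC library and without the 3 libraries with atrial transcripts. Perm1 had the largest fall of the 10 genes, from 436.6 and 466.0 CPM to 213.4 and 187.2 CPM. Its log2 difference was −1.17 ± 0.12 (adjusted p = 7.56e-05).

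Tfam stood at 39.2 and 41.6 CPM in floxed sham and 35.0 and 30.5 CPM in floxed TAC. The difference of −0.30 ± 0.14 did not pass the test (adjusted p = 0.119), although both TAC libraries were below both sham libraries. With relative log expression scaling, TMM scaling, edgeR or DESeq2 it did pass, making 9 of 10 genes.

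The fall was accompanied by a change in the cell type markers of the same libraries. The sum of 12 cardiomyocyte markers was 85286 to 94745 CPM in floxed sham and 64153 to 66663 CPM in floxed TAC. Of these 6 fell, Csrp3 and Actc1 rose, and 4 did not pass (14.5% of all genes fell and 27.9% rose). The sum of 15 macrophage markers was 458 to 466 CPM in sham and 2313 to 2619 CPM in TAC, and that of 12 fibroblast markers 3523 to 3536 CPM against 12834 to 16617 CPM. In whole ventricle, fewer heart muscle cells and less RNA per cell cannot be told apart, and the part of cell composition in these results was not tested. Set against the cardiomyocyte marker sum, the 10 regulators together amounted to 12.5 and 14.7 CPM per 1000 CPM of markers in floxed sham, and to 10.4 and 10.1 in floxed TAC. This ratio leans on Actc1, a large part of the sum. Actc1 alone was at 13022 and 15703 CPM in floxed sham and at 28204 and 26450 CPM in floxed TAC. The ratio without Actc1 was not computed, so whether the regulators fell more than the other markers was not tested. Defining cardiomyocyte markers were present in every library, and none of the 12 was at 0.

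**Figure D2:**
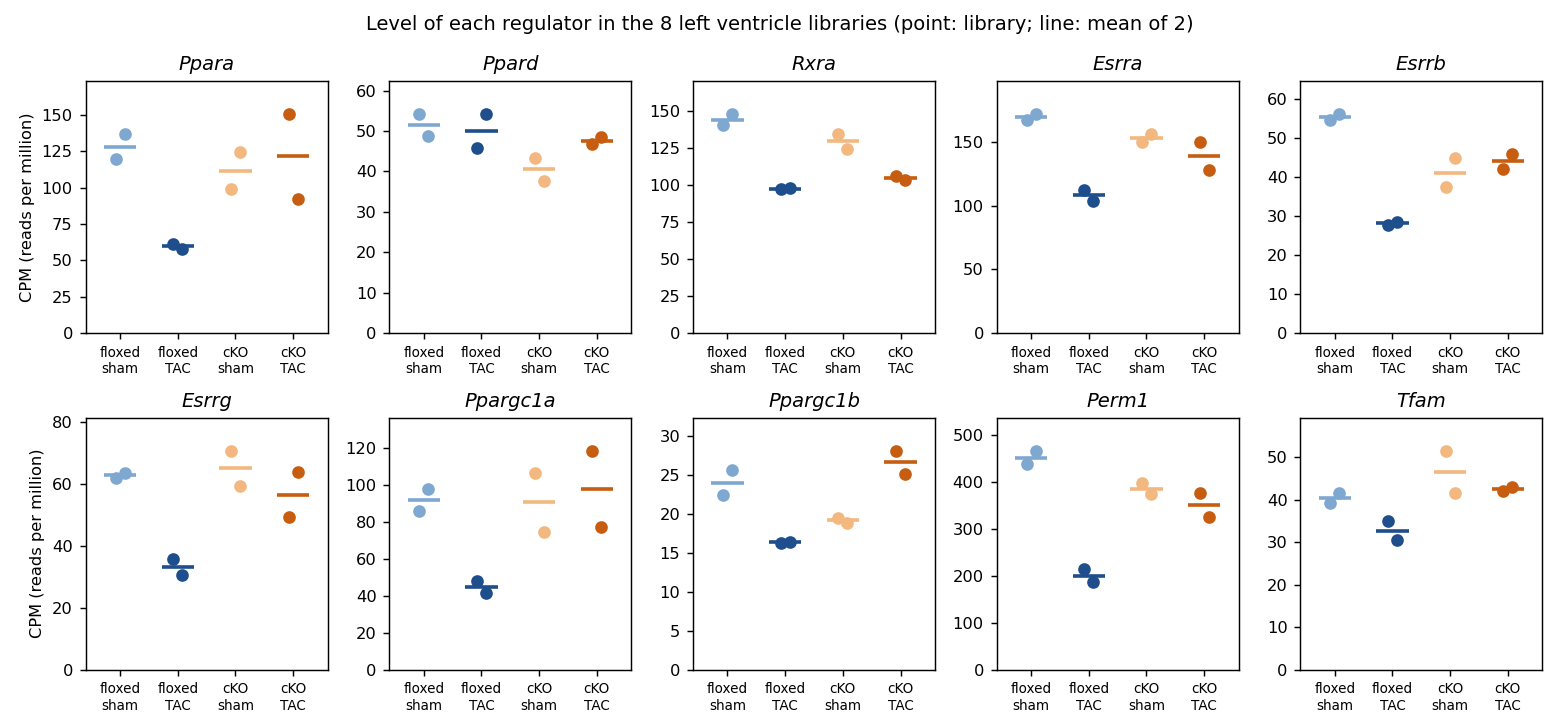
CPM of each of the 10 genes by group; each point is 1 library and each line the mean of 2, with every vertical axis starting at 0. For 9 genes both floxed TAC libraries lie below the other 6. Ppard is the exception.

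In cKO hearts no regulator passed the test for TAC against sham. Of all genes tested, 2.53% passed. By limma 0 of the 10 were called, 2 had an unadjusted p under 0.05 (Ppargc1b and Rxra), and edgeR and DESeq2 also called 0. The median log2 difference over the 10 was −0.02, with 5 above and 5 below 0.

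Perm1 stood at 396.8 and 373.5 CPM in cKO sham and at 376.5 and 325.2 CPM in cKO TAC libraries, which overlapped. Its log2 difference was −0.14 ± 0.12, with a 95% interval from −0.40 to 0.12. Esrra read 150.2 and 156.3 CPM in sham and 149.8 and 127.9 CPM in TAC (−0.15 ± 0.11), both TAC values lying below both sham values. Esrrb read 37.3 and 44.7 CPM against 42.0 and 45.9 CPM (0.10 ± 0.13), and Esrrg 70.7 and 59.2 CPM against 49.2 and 63.7 CPM (−0.20 ± 0.16). The libraries of Esrrb and of Esrrg overlapped between sham and TAC.

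Ppara and Ppargc1a varied most between the cKO libraries. Ppara stood at 98.9 and 124.4 CPM in cKO sham and at 150.9 and 92.3 CPM in cKO TAC, and Ppargc1a at 106.3 and 74.8 CPM in sham and 118.7 and 77.3 CPM in TAC. The TAC libraries of both genes spanned or overlapped the sham libraries, and the intervals of the differences ran from −0.38 to 0.55 for Ppara and from −0.38 to 0.58 for Ppargc1a. In both genes cKO TAC 1 was the highest of the 8 libraries, and without it the cKO differences were −0.26 for Ppara and −0.20 for Ppargc1a.

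Ppargc1b was the member with the largest positive difference in cKO hearts. It stood at 19.5 and 18.8 CPM in sham and at 28.1 and 25.2 CPM in TAC, without overlap (0.45 ± 0.14, adjusted p = 0.153). Rxra went the other way, from 134.6 and 124.5 CPM to 106.0 and 103.6 CPM, also without overlap (−0.30 ± 0.10, adjusted p = 0.169). Ppard stood at 43.4 and 37.7 CPM in sham and 46.7 and 48.6 CPM in TAC (0.23 ± 0.13). Tfam stood at 51.6 and 41.5 CPM in sham and 42.0 and 43.0 CPM in TAC (−0.12 ± 0.14). In the same libraries macrophage markers summed to 378 to 492 CPM after sham and to 816 to 1118 CPM after TAC. Cardiomyocyte markers summed to 79928 to 83598 CPM and 77660 to 89446 CPM.

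Between genotypes, sham hearts showed no regulator past the threshold, where 0.0534% of all genes passed. By limma 0 were called, 2 had an unadjusted p under 0.05 (Esrrb −0.43 ± 0.13 and Ppard −0.34 ± 0.13), and edgeR and DESeq2 called 0. Of the 10 differences 8 were below 0 and the median was −0.18. The 95% intervals still allow differences of some size: for Esrrb −0.72 to −0.14, for Perm1 −0.49 to 0.03, and for Ppara −0.67 to 0.26. The cKO sham group holds the library with Xist and without Ddx3y, and without it the count stayed at 0.

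In TAC hearts 7 of the 10 regulators were higher in cKO than in floxed libraries, where 24.9% of all genes passed and 8.39% were higher. The median log2 difference was 0.65 over the 10 and −0.10 over all genes tested. The differences were 1.08 ± 0.22 for Ppargc1a (adjusted p = 0.00739), 0.97 ± 0.21 for Ppara (adjusted p = 0.00986) and 0.80 ± 0.12 for Perm1 (adjusted p = 0.00221). Esrrg (0.74 ± 0.16), Ppargc1b (0.67 ± 0.14) and Esrrb (0.63 ± 0.13) had adjusted p-values of 0.00903, 0.0101 and 0.0086. Esrra was nearest to the threshold (0.35 ± 0.11, adjusted p = 0.0436) and was lost in 9 of 20 alternatives. Tfam (0.37 ± 0.14, adjusted p = 0.085), Rxra (0.10 ± 0.10) and Ppard (−0.06 ± 0.13) did not pass, and the sign of the Ppard difference turned under other scalings. Without floxed TAC 2 the count was 2, and without the 3 libraries with atrial transcripts it was 5.

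The comparison of the responses themselves is the interaction: the log2 TAC difference of cKO hearts, less that of floxed hearts. A positive value means that a gene fell less, or rose more, in cKO hearts. Of the 10 genes 5 passed, all positive, where 14.1% of all genes passed and 4.93% were positive. All 10 values were above 0, with a median of 0.84 against −0.13 over all genes tested.

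Ppara had an interaction of 1.17 ± 0.29 (adjusted p = 0.0297) and Ppargc1a of 1.12 ± 0.30 (adjusted p = 0.039). Esrrb had 1.06 ± 0.18 (adjusted p = 0.0097), Perm1 1.03 ± 0.16 (adjusted p = 0.00733) and Ppargc1b 0.98 ± 0.20 (adjusted p = 0.0171). Esrrg (0.70 ± 0.22, adjusted p = 0.0632) and Esrra (0.50 ± 0.16, adjusted p = 0.0626) lay just outside the threshold and passed with edgeR, DESeq2 and both other scalings. Rxra (0.26 ± 0.14), Ppard (0.28 ± 0.19) and Tfam (0.18 ± 0.20) did not pass. Perm1 passed in each of the 19 alternatives run for the interaction, its highest adjusted p being 0.043, and Esrrb in all but the one without floxed sham 1 (adjusted p = 0.0546).

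The number of interactions called changed when libraries were left out. It was 1 without floxed sham 1 and 2 without floxed sham 2, floxed TAC 1 or floxed TAC 2. It was 4 without either cKO sham library, 4 without the 3 libraries with atrial transcripts, 5 without cKO TAC 1 and 6 without cKO TAC 2. All 15 macrophage markers were lower in cKO TAC than in floxed TAC libraries (16.5% of all genes were). Of 12 cardiomyocyte markers 7 were higher (8.39% of all genes were) and 1, Csrp3, was lower. The part of these differences in cell makeup was not tested. Per 1000 CPM of cardiomyocyte markers, the 10 regulators came to 12.4 and 12.3 CPM in cKO TAC against 10.4 and 10.1 CPM in floxed TAC. In cKO sham they came to 13.9 and 12.6 CPM, both above the cKO TAC values. The marker sum is not a neutral scale, since TAC lowered 6 of its 12 genes and raised 2 in floxed hearts. Actc1, 1 of the 2 that rose, weighs heavily in it. It stood at 28204 and 26450 CPM in floxed TAC and at 17109 and 23928 CPM in cKO TAC. Whether the gap between the genotypes holds without Actc1 was not tested.

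**Figure D3:**
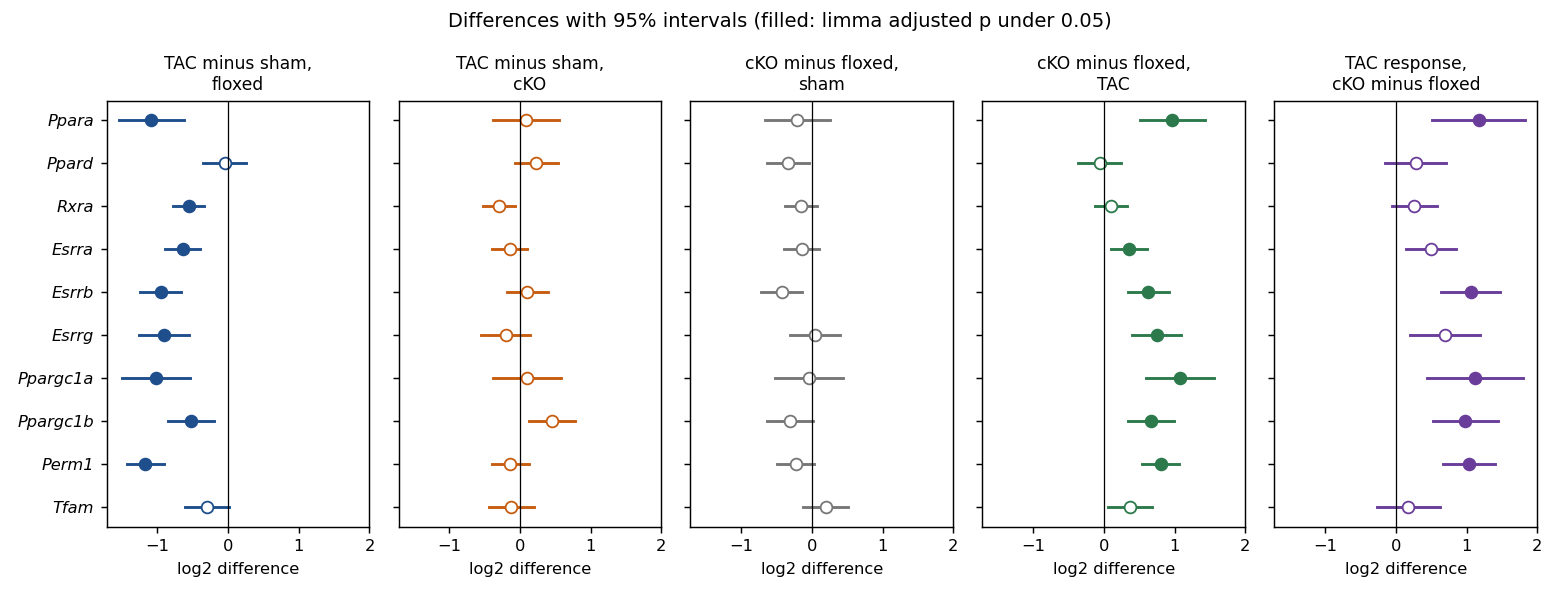
Log2 differences of the 10 genes in the 5 comparisons, with 95% intervals from the limma fit; filled points have an adjusted p under 0.05. The floxed TAC panel has 8 filled points, all below 0, the cKO TAC and sham genotype panels have 0, and the last 2 panels have 7 and 5 filled points, all above 0.

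Laid side by side over all 8 libraries, 9 of the 10 genes had both floxed TAC libraries below the other 6, as had 17.4% of the 13120 genes. For Ppara the highest floxed TAC library was at 61.6 CPM and the lowest of the others at 92.3 CPM, and for Perm1 these values were 213.4 and 325.2 CPM. For Rxra the gap was small, from 97.8 to 103.6 CPM. Ppard was the exception, since its floxed TAC libraries lay within the range of the others.

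The members fell unequally. The ratio of Ppara to Ppard, per kb, was 2.05 and 2.60 in floxed sham, 1.25 and 0.994 in floxed TAC, 2.11 and 3.06 in cKO sham, and 2.99 and 1.76 in cKO TAC. Both floxed TAC values lay below the other 6. The ratio of Ppargc1a to Ppargc1b was 2.222 and 2.199 in floxed sham and 1.71 and 1.47 in floxed TAC, and spanned 1.77 to 3.15 in the cKO libraries. Esrra made up 78.3% and 78.4% of the summed estrogen-related receptors per kb in floxed sham and 81.7% in both floxed TAC libraries, while the cKO libraries ranged from 74.6% to 80.6%. In floxed TAC hearts Perm1 and Esrra had overlapping levels per kb (51.4 ± 4.75 and 48.2 ± 2.63 CPM per kb), whereas in the other 3 groups Perm1 was higher without overlap.

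Partners and other regulators of the same network, a list of 27 genes, were mixed. In floxed hearts TAC lowered 9 and raised 4 (14.5% of all genes fell and 27.9% rose), with a median of −0.25. Rxrg, the RXR form enriched in muscle, went from 88.2 ± 1.36 to 34.0 ± 1.16 CPM (SD, n = 2; −1.35 ± 0.13, adjusted p = 6.31e-05). Klf15, a factor that supports lipid use in heart muscle, went from 56.2 ± 1.05 to 14.2 ± 5.83 CPM (−1.97 ± 0.30), and Lpin1, a phosphatidate phosphatase that also coactivates PPARα, from 259 ± 8.25 to 153 ± 10.01 CPM. The third member of the PGC-1 family, Pprc1, went the opposite way from Ppargc1a and Ppargc1b. It rose from 19.8 ± 2.09 to 38.7 ± 2.42 CPM (0.94 ± 0.17, adjusted p = 0.00203), and was lower in cKO than in floxed TAC hearts (−0.61 ± 0.17, adjusted p = 0.03). Nrf1, an activator of nuclear genes for mitochondria, rose by 0.52 on the log2 scale, and Hif1a, the oxygen-regulated factor, by 0.85.

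In cKO hearts 0 of these 27 passed for TAC against sham (5 at an unadjusted p under 0.05, and 0 with edgeR or DESeq2). The interaction was positive for 3: Klf15 (1.67 ± 0.42), Lpin1 (1.01 ± 0.21) and Rxrg (0.96 ± 0.18). It was −0.74 ± 0.24 for Pprc1 and did not pass (adjusted p = 0.0735). These 3 of 27 compare with 4.93% of all genes. Without either floxed sham library none of the 27 interactions was called, without the 3 libraries with atrial transcripts 1 was, and without cKO TAC 2 there were 7. The 9 falls and 4 rises in floxed hearts, 13 in all, became 6 without floxed sham 1, 7 without floxed sham 2, and also 7 when the 3 libraries holding atrial transcripts were left out.

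Of 19 genes that copy, repair or transcribe mitochondrial DNA, the pathway in which Tfam acts, 7 fell and 0 rose after TAC in floxed hearts, with a median of −0.30. That is 36.8% of the list past the threshold, against 42.4% of all genes in either direction and 14.5% in the lower one. Tfb2m, the transcription factor that works with Tfam at mitochondrial promoters, went from 88.8 ± 3.96 to 52.4 ± 2.84 CPM (SD, n = 2; −0.75 ± 0.12, adjusted p = 0.000919). The mitochondrial RNA polymerase Polrmt (−0.69 ± 0.16), the helicase Twnk (−0.63 ± 0.14), the nuclease Mgme1 (−0.68 ± 0.14) and the ribonucleotide reductase subunit Rrm2b (−0.72 ± 0.14) also fell. Tfb1m, an RNA methyltransferase, did not pass (−0.13 ± 0.27). In TAC hearts 5 of the 19 were higher in cKO (8.39% of all genes were). The interaction passed for 1 of the 19, Tfb2m (0.69 ± 0.17, adjusted p = 0.0275), a share of 5.26% that is close to the 4.93% of all genes. This call was lost in 7 of 19 alternatives, with an adjusted p of up to 0.124, among them the one without the 3 libraries with atrial transcripts. Polrmt had nearly the same value (0.69 ± 0.23) and did not pass. In cKO hearts 0 passed for TAC against sham (1 at an unadjusted p under 0.05, and 0 with edgeR or DESeq2). Without floxed sham 1 the 7 falls became 4.

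Of 35 PPAR target genes, 31 were in the table. In floxed hearts 25 of them fell after TAC and 1 rose (14.5% of all genes fell and 27.9% rose), with a median of −1.20. The falls included Acadm, a dehydrogenase of fatty acid oxidation, from 1205 ± 0.86 to 406 ± 34.3 CPM (SD, n = 2; −1.57 ± 0.11), and Acsl1, which activates long-chain fatty acids, from 1666 ± 162 to 527 ± 52.1 CPM (−1.66 ± 0.12). Cpt2, of the carnitine shuttle, went from 384 ± 19.3 to 122 ± 3.63 CPM, and Mlycd, which degrades malonyl-CoA, from 137 ± 6.27 to 47.9 ± 4.52 CPM. The uncoupling protein Ucp2 rose by 0.66 ± 0.22 on the log2 scale (adjusted p = 0.0342). Pdk4 (−0.29), Cpt1a (−0.15), Plin2 (0.35), Cidea (0.11) and Angptl4 (2.15) did not pass. Pdk4 read 216.4 and 331.8 CPM in floxed sham, but 1493 and 625.4 CPM in cKO sham and 551.6 and 650.1 CPM in cKO TAC. Between genotypes in sham hearts 0 of the 31 passed (4 at an unadjusted limma p under 0.05), where 0.0534% of all genes did. Those differences ran from −0.52 to 1.85, with a median of −0.09. Acot2, a mitochondrial acyl-CoA thioesterase, had the smallest interaction p of the list: it stood at 71.7 and 106.5 CPM in floxed sham, 17.9 and 17.2 CPM in floxed TAC, and, in the knockout, 60.9 and 66.9 CPM after sham and 69.9 and 59.2 CPM after TAC. Its interaction was 2.26 ± 0.25 (adjusted p = 0.00407).

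In TAC hearts 25 of the 31 PPAR targets were higher in cKO and 0 lower (8.39% and 16.5% of all genes were). The interaction was positive for 20 and negative for 0, with a median of 1.05. Of all genes tested, 14.1% passed for the interaction and 4.93% were positive. TAC against sham in cKO hearts called 0 with limma (7 at an unadjusted p under 0.05) and 0 with edgeR, but 2 with DESeq2. The median there was −0.20, and Acadm had 1210 ± 65.3 CPM after sham and 864 ± 64.3 CPM after TAC (adjusted p = 0.0623). Without either floxed sham library the interaction count was 10, and without the 3 libraries with atrial transcripts it was 18. In floxed hearts the count of 26 calls was 27 without those 3.

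Of 35 ERR and PGC-1 target genes, all 35 fell after TAC in floxed hearts (14.5% of all genes did), with a median of −0.88. The count was 31 without the 3 libraries with atrial transcripts. Idh3g, of the citric acid cycle, went from 615 ± 15.7 to 294 ± 4.84 CPM (SD, n = 2; −1.07 ± 0.11), and Ndufs1, a subunit of respiratory complex I, from 605 ± 7.51 to 265 ± 6.60 CPM (−1.19 ± 0.12). The cytochrome oxidase subunits Cox8b and Cox7a1 went from 797 ± 33.8 to 368 ± 8.30 CPM and from 784 ± 2.45 to 275 ± 6.19 CPM. Opa1, which fuses the inner mitochondrial membrane, went from 258 ± 16.2 to 149 ± 13.4 CPM.

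In TAC hearts 33 of the 35 were higher in cKO (8.39% of all genes were). The fusion proteins Mfn1 (0.17) and Mfn2 (0.27) did not pass. The interaction passed for 20, all positive (4.93% of all genes were), with a median of 0.67, including Opa1 (0.83 ± 0.16) and Ndufs1 (0.87 ± 0.17). Nearly all of these calls were lost without either floxed sham library, and also without the 3 libraries with atrial transcripts. Such fits leave 1 library in a group and fewer residual degrees of freedom, and the cause of the loss was not tested. Over the 19 alternatives the interaction ran from 0.60 to 0.83 for Idh3g, 0.71 to 1.07 for Ndufs1 and 0.74 to 0.96 for Opa1. It ran from 0.62 to 0.86 for Cox8b and from 0.68 to 1.18 for Cox7a1. In cKO hearts limma called 0 for TAC against sham (8 at an unadjusted p under 0.05), edgeR 0 and DESeq2 2, while 34 of the 35 differences were below 0 with a median of −0.24. Many of these genes are most abundant in heart muscle cells, whose marker sum was also lower in floxed TAC than in floxed sham libraries. Of those 12 markers 6 fell, 2 rose and 4 did not pass, and the part of cell composition was not tested. In RefSeq windows TNAAGGTCA was found for 0 of the 27 ERR and PGC-1 targets that had a window. It was found for 0 of the 24 PPAR targets with a window, against 1.43% of 27025 genes.

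**Figure D4:**
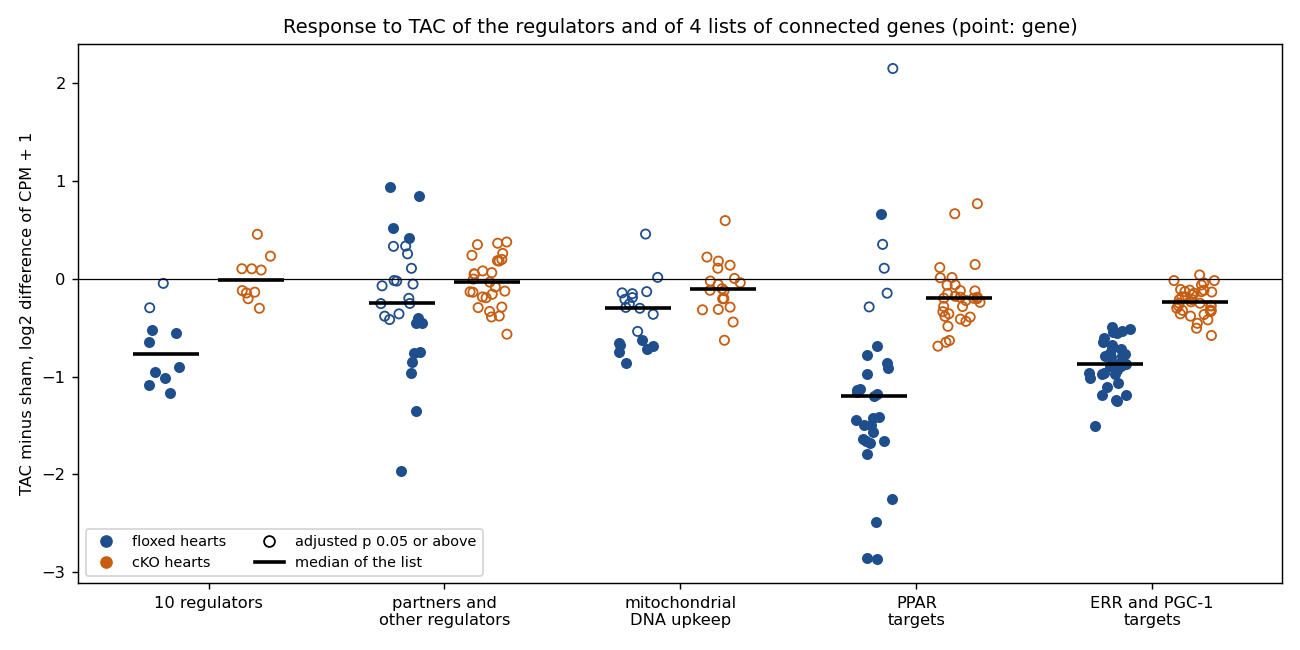
TAC minus sham log2 difference of CPM + 1 of each gene, for the 10 regulators and 4 lists of connected genes, in floxed (blue) and cKO hearts (orange); filled points have an adjusted p under 0.05 and black lines are medians. Floxed medians run from −0.25 to −1.20, cKO medians from −0.02 to −0.24, and no cKO point is filled.

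Across the 8 libraries the members varied together to different degrees, which is given as a description, since the libraries fall into 4 groups. Pearson's r of log2(CPM + 1) was highest for Esrra with Perm1 (0.977) and lowest for Ppard with Tfam (−0.487), and Ppard had values between −0.487 and 0.131 with the other 9. Among 8714 genes with a mean of at least 10 CPM, the gene whose pattern was most like Perm1 was Csl (r = 0.998), and that most like Esrra was Oplah (r = 0.997). The closest were Gdpd5 for Esrrg (0.988), Thrb for Ppara (0.981), Mrps9 for Ppargc1a (0.987), Zfp655 for Ppargc1b (0.973), Ano10 for Rxra (0.987) and Mrpl38 for Tfam (0.980). Ppard had the weakest closest match, H6pd at 0.922.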

How the data were processed

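RNA of 8 mouse left ventricle libraries was compared in 4 groups of 2. Bowtie2 2.2.6, HTSeq, DESeq2 and the mm10 genome are named, per the submitters' processing notes; no source used here states the annotation or the counting settings. The authors deposited CPM values, the reads of a gene scaled to the library total. Dividing by the value of 1 read gave whole numbers for 100% of the values (tolerance 0.02 reads), so reads and totals were recovered.

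limma 3.58.1 (R 4.3.3) with a trended variance was fitted to log2(CPM + 1) of all 8 libraries, with 1 coefficient per group, 4 residual degrees of freedom, and Benjamini-Hochberg adjustment over 13120 genes that reached 1 CPM in 2 or more libraries (319 did not). The threshold was an adjusted p under 0.05. A fold on this scale understates the change of low genes. The fit was tested on simulated data. The members and the gene lists were chosen with earlier results of these data known. From each list, genes were named for the 4 smallest p-values in floxed TAC against sham and the 2 smallest for the interaction; the others named (Nrf1, Hif1a, Ucp2, Pdk4, Cpt1a, Plin2, Cidea, Angptl4, Tfb1m, Mfn1, Mfn2 and marker genes) were chosen after their values were seen. For likeness, the gene with the highest r was named for each member except Esrrb, whose match is not reported here. Gene models came from GENCODE M21 and promoter windows from RefSeq, both GRCm38. The set of motifs was settled after a first search of these windows: a PPAR and RXR repeat with no match in a member window was dropped, and the NRF1 motif was shortened. Alternatives were other pseudocounts, filters and scalings, edgeR 4.0.16 and DESeq2 1.42.0 on the recovered reads, a replicate block, and libraries left out.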

Additional observations from a re-analysis of the deposited data

Results flagged for a closer look

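For 19 of the genes named by the rule the response to TAC differed between genotypes by the test of the difference itself, the interaction (cKO response minus floxed response, log2, limma). Among the regulators these were Ppara (1.17 ± 0.29, adjusted p = 0.0297), Ppargc1a (1.12 ± 0.30, adjusted p = 0.039), Esrrb (1.06 ± 0.18, adjusted p = 0.0097), Perm1 (1.03 ± 0.16, adjusted p = 0.00733) and Ppargc1b (0.98 ± 0.20, adjusted p = 0.0171). Among the partners these were Klf15 (1.67 ± 0.42), Lpin1 (1.01 ± 0.21) and Rxrg (0.96 ± 0.18), and among the genes of mitochondrial DNA upkeep Tfb2m (0.69 ± 0.17). Of the named PPAR targets they were Acot2 (2.26 ± 0.25), Acsl1 (1.54 ± 0.18), Cpt2 (1.40 ± 0.18), Mlycd (1.08 ± 0.17) and Acadm (1.08 ± 0.16). Of the named ERR and PGC-1 targets they were Cox7a1 (0.93 ± 0.23), Ndufs1 (0.87 ± 0.17), Opa1 (0.83 ± 0.16), Cox8b (0.73 ± 0.17) and Idh3g (0.70 ± 0.15). The named targets were picked by their p-values and stand for lists in which 20 PPAR targets and 20 ERR and PGC-1 targets passed. All 19 values are positive: each gene fell after TAC in floxed hearts, and none passed the test in cKO hearts.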

How the results depend on the processing

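In floxed hearts the count of 8 regulators lowered by TAC ranged from 7 to 9 over 20 alternatives, and the counts of 0 for TAC in cKO hearts and for genotype in sham hearts stayed at 0 in all 20. With the replicate numbers as a block (replicate block) the counts were 8, 0, 0, 7 and 5. Deviations of same-numbered libraries correlated between −0.11 and 0.08 over all genes tested. This cannot exclude a step shared by same-numbered libraries, and no source used here says that the numbers pair samples. The 3 libraries with atrial transcripts all have replicate number 2, while floxed TAC 2 had little Myl7 (0.511 CPM). The block is given only for completeness. Under the block the floxed counts of the 4 lists were 13, 7, 26 and 35, and the interaction counts 4, 1, 20 and 17. Leaving out 1 library at a time gave 2 to 7 regulators for genotype in TAC hearts and 1 to 6 for the interaction. The same gave, for the interaction, 0 to 7 partners, 0 to 2 genes of mitochondrial DNA upkeep, 10 to 22 PPAR targets and 0 to 25 ERR and PGC-1 targets, and, for floxed TAC, 6 to 14 partners and 4 to 7 genes of mitochondrial DNA upkeep. Without the 3 libraries with atrial transcripts, floxed TAC called 7 partners, and the interaction 1 partner, 0 genes of mitochondrial DNA upkeep and 1 ERR and PGC-1 target. DESeq2 called 5 partners and 2 genes of mitochondrial DNA upkeep for the interaction. Fits with fewer libraries had fewer residual degrees of freedom, and the cause of these changes was not tested.

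Of 1731 alternative values of single genes, 1608 kept their direction and side of the threshold, 83 no longer passed, 22 newly passed and 18 changed sign, 0 of the last past the threshold. For Ppard the genotype difference in TAC was 0.037 with relative log expression scaling, 0.031 with TMM, 0.027 with edgeR and 0.032 with DESeq2. Without the 3 libraries with atrial transcripts the interaction of Tfam was −0.036 and the sham genotype difference of Ppargc1a 0.30. The other changes of sign came from leaving out 1 library. Over those fits, Ppard ran from −0.17 to 0.073 for floxed TAC and from −0.18 to 0.060 for genotype in TAC. For TAC in cKO hearts, Ppara ran from −0.26 to 0.44, Ppargc1a from −0.20 to 0.41, Esrrb from −0.026 to 0.23 and Tfam from −0.27 to 0.031. For genotype in sham hearts, Ppargc1a ran from −0.29 to 0.21 and Esrrg from −0.081 to 0.17.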
